A study of Solanum lycopersicum with 18 samples.

Results

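The normal step from elongation to differentiation in the tomato root was followed by comparing 3 RNA-Seq libraries of the wildtype (WT) differentiation zone (D) with 3 libraries of the WT elongation zone (E), 6 of the 18 libraries of the series. The libraries were chosen by their labels, and no expression value entered the choice. All 6 came from 7-day-old seedlings of *Solanum lycopersicum* 'Ailsa Craig', grown on agar medium with sucrose under long days, and neither zone received a treatment. The differentiation zone was a root piece of about 1 cm taken above the first root hair bulge, and the elongation zone reached from the shootward border of the meristem to that bulge. Each biological replicate pooled root pieces of many seedlings, so p-values measure the spread between pools. Both zones are bulk tissue, in which fewer cells of a type and less RNA per cell cannot be told apart. The other libraries are the WT meristem and the same 3 zones of *dgt*, a mutant of the cyclophilin gene *DIAGEOTROPICA* in the same background, and they are used only to show levels closer to the tip and whether the step differed in the mutant.

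Cells that leave the root meristem stop dividing and elongate while expansins and xyloglucan-modifying enzymes loosen the wall and water enters the vacuole. Further from the tip elongation ends, walls are reinforced, vessels and endodermal barriers form, root hairs grow out and lateral roots are started in inner tissue. Auxin made and moved near the tip, with gibberellin, cytokinin and ethylene, is known to set where these steps take place.

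The expected counts, which RSEM estimates for each gene and which need not be whole, summed to between 18504654 and 20622998 per D library and to between 18032826 and 19900854 per E library. Values called normalized counts below are those counts divided by each library's size after TMM scaling, relative to the mean size of the 6. TPM relates counts to transcript length and is used wherever genes are compared with each other. Over 2 TPM there were 17170 ± 455 genes in D and 15777 ± 548 in E (SD, n = 3 each), and every D library exceeded every E library (exact permutation test, two-sided, p = 0.1, the smallest value 3 against 3 allows). The median log2 fold change of all genes, D over E, was 0.431 on log2(TPM + 0.1) values, against 0.0471 with TMM. A fixed TPM limit is therefore easier to pass in D, and the part of this shift in the gap was not tested. Elongation replicate 2 and differentiation replicate 1 held more of the other zone's strongest genes than the others of their zone. For the 113 genes with at least 100 normalized counts in D that were higher there by over 16-fold, elongation replicate 2 had the highest E value in 94, with a median of 5.12% of the D mean, against 1.55% and 2.57% in elongation replicates 1 and 3. For the 208 such genes that were lower, differentiation replicate 1 had the highest D value in 114, with a median of 3.60% of the E mean, against 2.69% and 2.85% in differentiation replicates 2 and 3. Without elongation replicate 2 and differentiation replicate 1 together, 3783 genes were called higher and 3555 lower. Over all genes, elongation replicate 1 was instead the furthest from the others of its zone. Its chi-square per degree of freedom was 38.7 and 26.5 against elongation replicates 2 and 3, beside 13.6 between those. It also had the fewest genes over 2 TPM, 15158 against 16201 and 15972. Differentiation replicate 1 was the furthest in its zone, at 32.8 and 44.0, beside 11.5.

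Of 19927 genes tested, 3317 (16.6%) were called higher and 3147 (15.8%) lower in D than in E, 32.4% in all, where a call needs more than a 2-fold difference and an edgeR adjusted p-value below 0.05. Nearly all of these calls separated the zones completely: in 3287 of the higher genes every D library was above every E library, and in 3108 of the lower genes every D library was below. Of all genes tested, called or not, 65% had zones that did not overlap in this way, 6729 with D above and 6217 with D below. The shares of all genes called, 16.6% higher and 15.8% lower, are the background for the counts of every gene list below. All of these lists were chosen with earlier results of these data known. Changes beyond 16-fold were called in 176 higher and 263 lower genes, and changes beyond 64-fold in 31 higher and 58 lower genes. The genes called lower held between 11.8% and 14.0% of all counts in the D libraries, against between 32.1% and 36.0% in the E libraries. The genes called higher held between 16.0% and 17.8% of counts in D, against between 3.78% and 4.87% in E. The balance of the 2 directions depends on the scaling. With TMM the median log2 fold change of all genes was 0.0471 and 51.3% of calls were higher. With library totals alone the median was 0.363 and 69.9% of calls were higher, and on log2(TPM + 0.1) values, tested with limma, the median was 0.431 and 73.1% of calls were higher. Ratios of TPM values therefore run above the fold changes given here, which are relative to the TMM median.

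**Figure D1:**
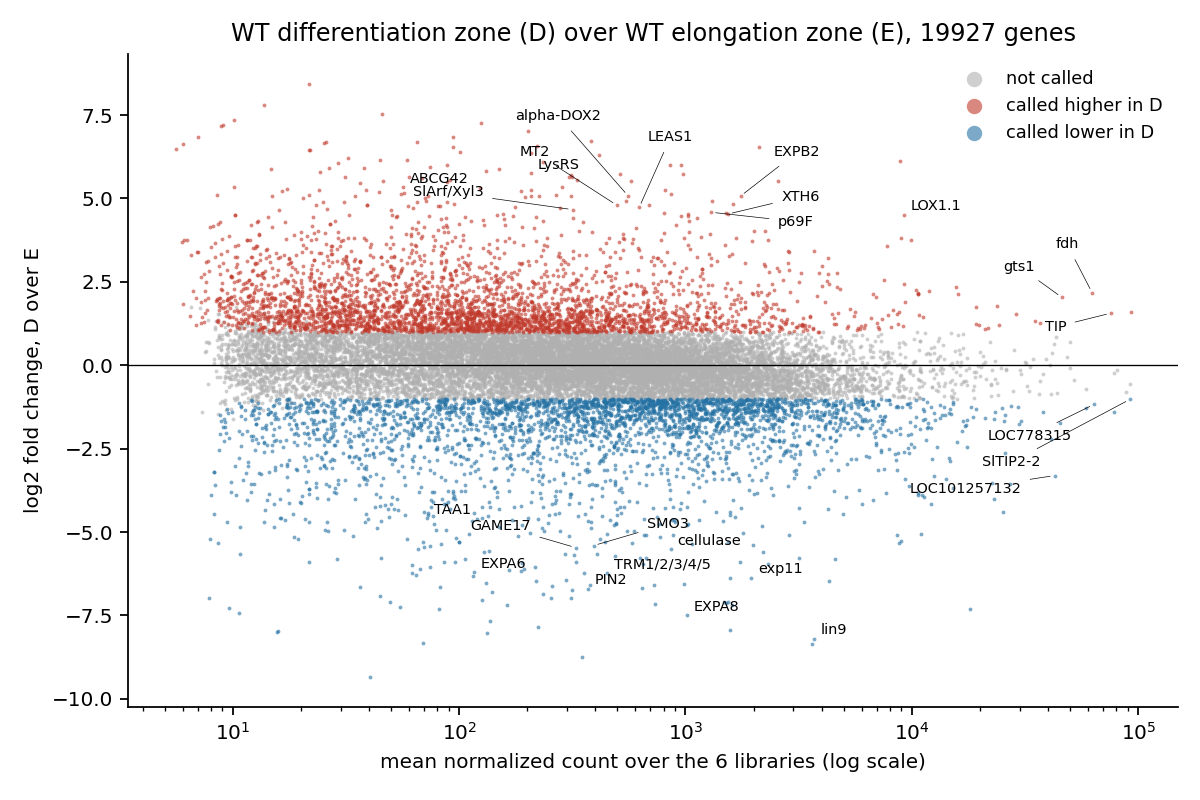
Log2 fold change of each of the 19927 tested genes in the WT differentiation zone (D) over the WT elongation zone (E), against its mean normalized count over the 6 libraries on a log axis. Red points are the 3317 genes called higher in D, blue points the 3147 called lower and grey points the rest, and the labelled genes include lin9 at -8.19 and LysRS at 5.76.

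Expansins and xyloglucan-modifying enzymes, which loosen the primary wall, changed in both directions. Expansins slide wall polysaccharides apart without cutting them, and of 12 tested by symbol 5 were called lower and 3 higher, beside 15.8% lower and 16.6% higher among all genes. The median log2 fold change of the 12 was -0.70, beside 0.05 for all genes. EXPA8 had 16.1, 8.2 and 9.6 normalized counts in the D libraries, against 2006, 1869.5 and 2187 in the E libraries (log2 fold change -7.49, SE 0.23, edgeR adjusted p = 4.07e-08). The expansin gene exp11 had 84.4, 30.1 and 27.3 in the differentiation zone, against 5338, 2802 and 3420.4 in the elongation zone (log2 fold change -6.37, SE 0.44, edgeR adjusted p = 2.61e-06). In both genes differentiation replicate 1 was the highest D library, and the zones were still far apart. EXPA6 had 2, 3.6 and 3.2 in the differentiation zone, against 281, 197 and 214 in the elongation zone (log2 fold change -6.21, SE 0.31, edgeR adjusted p = 3.69e-07). EXP2 and EXPA10 were lower as well, with log2 fold changes of -3.38 ± 0.19 and -2.3 ± 0.16 (± SE).

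The expansins that were higher in D were other members. EXPB2, a beta-expansin, had 3471, 3307 and 3429.8 in the differentiation zone, against 33, 168 and 96.8 in the elongation zone (log2 fold change 5.07, SE 0.42, edgeR adjusted p = 7.26e-06). Its D libraries were close to each other, and elongation replicate 2 was the highest of the E libraries. The less abundant exp18 and EXP1 were higher by log2 fold changes of 2.85 ± 0.38 and 2.19 ± 0.37. In TPM, which can be compared between genes, EXPB2 averaged 278 in D and 6.5 in E. The gene exp11, in the elongation zone the most abundant expansin found by symbol, averaged 3.01 in D and 191 in E. Among the 12 expansins tested by symbol, the leading one was thus another gene in each zone. Expansin genes without a symbol were not compared.

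Xyloglucan endotransglucosylase/hydrolases (XTH or XET), which cut and rejoin the xyloglucan that ties cellulose together, and endo-1,4-beta-glucanases (Cel) moved mostly downward: of 16 tested, 10 were called lower, 2 higher and 4 neither, with a median of -2.70. The gene with the highest TPM in E was LOC101261784, which RefSeq names XTH9, with 2293, 1016 and 873 normalized counts in the differentiation zone, against 28966, 13733 and 16749 in the elongation zone (log2 fold change -3.83, SE 0.43, edgeR adjusted p = 4.52e-05). XTH3, tXET-B2, tXET-B1, XTH1 and Cel2 were lower, with log2 fold changes between -4.51 and -2.78. A further glucanase gene, listed as cellulase and outside the symbol list, had 28.1, 48.3 and 32.9 in the differentiation zone, against 1255, 1788 and 2009 in the elongation zone (log2 fold change -5.52, SE 0.26, edgeR adjusted p = 2.75e-07). XTH6 went against the family, with 2322, 2623 and 3914 in the differentiation zone, against 62, 205 and 111 in the elongation zone (log2 fold change 4.53, SE 0.39, edgeR adjusted p = 8.41e-06). The glucanase gene cel7 was also higher, with 131, 127 and 169 in the differentiation zone, against 35.6, 33.9 and 39.8 in the elongation zone (log2 fold change 1.96, SE 0.22, edgeR adjusted p = 4.1e-05). In every XTH and glucanase gene called, the D libraries did not overlap the E libraries, as the plot of wall genes shows for those drawn.

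**Figure D2:**
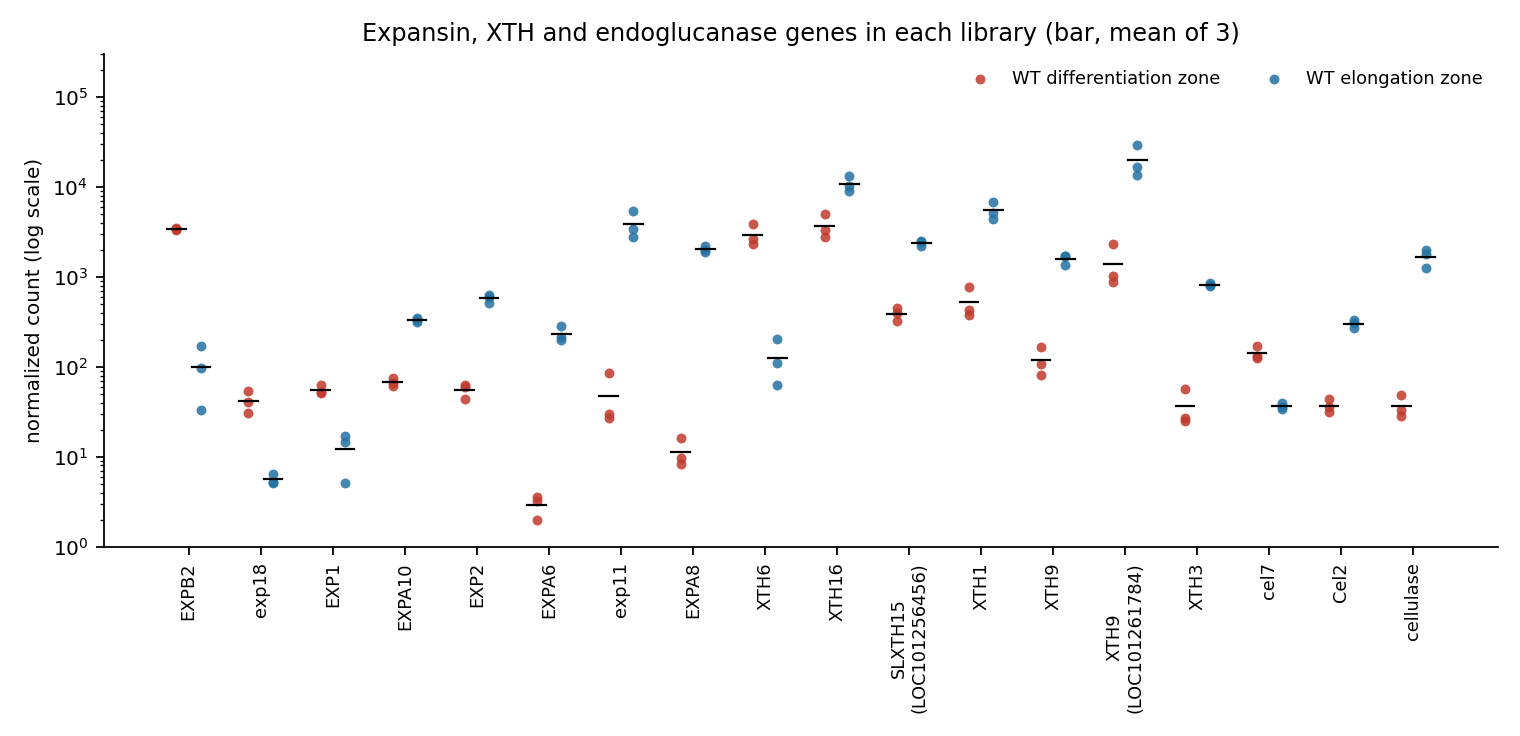
Normalized counts (log axis) of the expansin genes and a selection of the XTH and endoglucanase genes called in either direction, with each WT differentiation library as a red point left of each WT elongation library in blue and the mean of 3 as a bar. The genes tXET-B1 and tXET-B2 are not drawn. EXPB2 and XTH6 sit higher in differentiation libraries, at 3307 to 3471 and 2322 to 3914, while EXPA8 sits at 8.2 to 16.1 there and at 1869.5 to 2187 in elongation libraries.

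Genes of the cytoskeleton and of other wall components followed in smaller numbers. A tubulin gene listed as TUB, for a subunit of microtubules, had 9746, 5980.1 and 5755 normalized counts in the differentiation zone, against 55299, 35826 and 41849.5 in the elongation zone (log2 fold change -2.63, SE 0.28, edgeR adjusted p = 3.14e-05). The actin gene Tom52 was lower, at -1.87 ± 0.24, and ACT, the third gene of this list, was at -0.85 and not called. It was called lower without differentiation replicate 1, at -1.05, and without both that library and elongation replicate 2, at -1.18. TRM proteins share the TON1-recruiting motif and are linked in Arabidopsis to microtubule arrays and organ shape. They were lower in 8 (34.8%) and higher in 2 (8.7%) of 23 tested, a list formed after values were seen. TRM1/2/3/4/5 (LOC101262175) had 10, 16.4 and 8.8 in the differentiation zone, against 571, 1032 and 1068 in the elongation zone (log2 fold change -6.24, SE 0.33, edgeR adjusted p = 5.54e-07), and TRM3/4 (LOC101257254) was lower, at -3.85 ± 0.14. TRM27/28B (LOC104644378) was higher, with 308, 285 and 262 in the differentiation zone, against 31.7, 62.6 and 37.6 in the elongation zone (log2 fold change 2.68, SE 0.24, edgeR adjusted p = 1.27e-05).

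Wall enzymes acting on pectin and side chains split evenly, with 3 of 9 tested called higher, 3 lower and 3 neither. All 6 that were called are beta-galactosidases of the TBG family. TBG5, TBG2 and TBG6 were higher by 3.24 ± 0.27, 2.77 ± 0.23 and 1.4 ± 0.18. TBG3, TBG7 and TBG1 were lower, at -2.67 ± 0.16, -2.05 ± 0.24 and -1.35 ± 0.13, the TBG1 call being lost on TPM values, at -0.96. SlArf/Xyl3, named as an arabinofuranosidase and xylosidase, had 355, 758 and 719.8 normalized counts in the differentiation zone, against 7.9, 40 and 21.5 in the elongation zone (log2 fold change 4.67, SE 0.44, edgeR adjusted p = 1.65e-05). AGP-1, an arabinogalactan protein of the wall surface, fell to 4837, 2608 and 2324 in the D libraries, against 22321, 13258 and 14136 in the E libraries (log2 fold change -2.35, SE 0.32, edgeR adjusted p = 0.000155). The extensin gene ext1, a structural wall glycoprotein and the only root hair gene found by symbol, had 1082, 789 and 1578 in the differentiation zone, against 397, 361 and 635 in the elongation zone (log2 fold change 1.31, SE 0.28, edgeR adjusted p = 0.00249). No gene of cellulose synthesis or of the Casparian strip was found by symbol, so neither was described.

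The cell cycle list showed no common direction. Of 21 genes tested, 7 (33.3%) were called higher, 3 (14.3%) lower and 11 neither, with a median of 0.08. Among all genes 16.6% were higher and 15.8% lower. The 7 were CycA1, cdkB2, CycB2, CYCB1-2, cdc20-1, ccs52B and krp2, of which the A- and B-type cyclins, the B-type kinase and the cdc20-1 and ccs52B activators of the anaphase-promoting complex act around mitosis and krp2 inhibits cyclin-dependent kinases. The kinase gene cdkB2 had 438, 526 and 467 normalized counts in the differentiation zone, against 83.1, 114 and 105 in the elongation zone (log2 fold change 2.23, SE 0.17, edgeR adjusted p = 4.35e-06). CycA1 had 196, 233 and 229 in the differentiation zone, against 47.5, 47.2 and 38.7 in the elongation zone (log2 fold change 2.3, SE 0.19, edgeR adjusted p = 6.56e-06), and CycB2 had 71.3, 73.8 and 65 in the differentiation zone, against 14.5, 21.6 and 17.2 in the elongation zone (log2 fold change 1.96, SE 0.26, edgeR adjusted p = 0.000128). In each of these genes the lowest D library was above the highest E library. The 3 lower genes were the D-type cyclins cycD3 and cycd3c2, which act at the entry into the cycle, and ccs52A, an activator known for endoreduplication. Of these cycD3 had 481, 423 and 431 in the differentiation zone, against 1843, 1493 and 1576 in the elongation zone (log2 fold change -1.88, SE 0.14, edgeR adjusted p = 3.48e-06), and ccs52A had 762, 564 and 653 in the differentiation zone, against 2090.1, 1545 and 1692 in the elongation zone (log2 fold change -1.43, SE 0.16, edgeR adjusted p = 5.59e-05). The replication clamp gene pcna was at 0.03 and cdkB1, a further B-type kinase, at -0.33, and neither was called.

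Histone genes, whose transcripts are known to follow DNA replication, went the other way. Of 5 tested, 3 were called lower and none higher, with a median of -1.13. HTA6, an H2A gene, had 1223, 1146 and 1401 in the differentiation zone, against 3824, 3802 and 4212 in the elongation zone (log2 fold change -1.65, SE 0.14, edgeR adjusted p = 8.09e-06), and H2B-2 was lower, at -1.44 ± 0.16. H2B-1, at -1.13 ± 0.18, was not called without differentiation replicate 2, at -0.99. The list was also lower in sum, at 903.9 to 1018 TPM in the D libraries, against 1282 to 1449 TPM in the E libraries. The summed level of the cell cycle list was 422.7 to 491 TPM in D and 384.4 to 414 TPM in E, so the markers chosen for carried-over meristem were above 0 in both zones. Their part in the changes of other genes was not tested.

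Auxin genes changed in both directions, also within a family. Of 68 tested, 13 (19.1%) were called higher and 18 (26.5%) lower, beside 16.6% and 15.8% among all genes, with a median of 0.14. Synthesis genes were mostly among the lower. TAA1 (LOC101246927), the tryptophan aminotransferase that makes indole-3-pyruvate, had 4, 8.2 and 4.8 normalized counts in the differentiation zone, against 139.9, 130.4 and 146 in the elongation zone (log2 fold change -4.58, SE 0.29, edgeR adjusted p = 1.38e-06). FZY5, a flavin monooxygenase of the YUCCA type that completes the route, had 35.2, 25.5 and 11.2 in the differentiation zone, against 517, 459.9 and 365 in the elongation zone (log2 fold change -4.24, SE 0.32, edgeR adjusted p = 4.08e-06). Its relative FZY4 had 9, 12.8 and 11.2 in the differentiation zone, against 129, 197 and 203 in the elongation zone (log2 fold change -3.99, SE 0.28, edgeR adjusted p = 2.67e-06). FZY3 and FZY6 were lower, at -2.7 ± 0.29 and -1.41 ± 0.26. FZY2 differed from them, being higher by 1.3 ± 0.18.

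Auxin carriers also changed both ways. PIN2, an efflux carrier known in Arabidopsis for gravitropism, had 7, 10 and 4 normalized counts in the differentiation zone, against 812, 709 and 673 in the elongation zone (log2 fold change -6.7, SE 0.25, edgeR adjusted p = 1.16e-07). Its D libraries thus held only a few counts each. PIN3 and PIN4 were lower, at -1.54 ± 0.16 and -1.06 ± 0.13, and the influx carriers LAX3 (LOC100736478) and LAX4 (LOC100736479), at -2.06 ± 0.15 and -1.16 ± 0.13. PIN5 and LAX2 (LOC100736477) were higher, with log2 fold changes of 2.1 ± 0.28 and 1.86 ± 0.33. Among Aux/IAA genes, early auxin targets that repress the response, IAA7, IAA19 (LOC101055549), IAA3, SlIAA16, IAA21, IAA2 (LOC101055542) and IAA10 were lower and IAA8 higher. IAA7 had 271, 207 and 191 in the differentiation zone, against 2068, 1843 and 1817 in the elongation zone (log2 fold change -3.1, SE 0.17, edgeR adjusted p = 5.52e-07). SlIAA16, the most abundant of these in the elongation zone at 701 TPM, had 4186, 3014 and 2508 normalized counts in the differentiation zone, against 17003, 10542 and 11295 in the elongation zone (log2 fold change -2.0, SE 0.25, edgeR adjusted p = 0.000101).

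The auxin genes that were higher in D included response factors and conjugating enzymes. ARF5, whose Arabidopsis counterpart acts in vascular and lateral root patterning, had 188, 257 and 209 in the differentiation zone, against 33, 27.7 and 23.7 in the elongation zone (log2 fold change 2.96, SE 0.22, edgeR adjusted p = 4.02e-06). ARF12, ARF1 and ARF3 were higher by 2.16 ± 0.21, 2.14 ± 0.22 and 1.15 ± 0.19, while ARF7 (LOC100191131) and ARF19-1 were lower, at -1.26 ± 0.17 and -1.08 ± 0.13. GH3 enzymes join hormones such as auxin to amino acids, and GH3-5 (LOC101251682), GH3-17 (LOC101266841), GH3-9 (LOC101262636), GH3-4 (LOC101251833) and GH3-15 (LOC101264094) were all higher. GH3-17 had 2591, 4254 and 5393 normalized counts in the differentiation zone, against 589.8, 1091 and 588 in the elongation zone (log2 fold change 2.43, SE 0.31, edgeR adjusted p = 0.000117). No GH3 gene was called lower. Counted on library totals alone, the higher auxin genes numbered 20 in place of 13, and on log2(TPM + 1) values the lower ones 10 in place of 18.

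Cytokinin genes, found under Sl-prefixed symbols in a list extended after values were seen, were higher in 6 (42.9%) and lower in 2 (14.3%) of 14 tested. Among all genes the shares were 16.6% and 15.8%. SlCKX3, a cytokinin oxidase that breaks the hormone down, had 463, 453 and 458 in the differentiation zone, against 27.7, 51.3 and 18.3 in the elongation zone (log2 fold change 3.8, SE 0.29, edgeR adjusted p = 4.22e-06). SlIPT3, an isopentenyltransferase of the first step of synthesis, had 159, 209 and 230.3 in the differentiation zone, against 15.8, 40 and 14 in the elongation zone (log2 fold change 3.07, SE 0.35, edgeR adjusted p = 5.19e-05). TLOG1, which releases the active base, and the hydroxylases SlCYP735A2 and SlCYP735A1 of trans-zeatin synthesis were higher by 2.54 ± 0.27, 1.79 ± 0.16 and 1.25 ± 0.15. The isopentenyltransferase genes SlIPT1 and SlIPT2 moved against SlIPT3, with log2 fold changes of -3.7 ± 0.49 and -3.27 ± 0.44. SlIPT2 had 14.1, 5.5 and 4.8 in the differentiation zone, against 107, 74.9 and 51.6 in the elongation zone (log2 fold change -3.27, SE 0.44, edgeR adjusted p = 0.000143). The list as first written held LOG7 as its only tested gene, at -0.87 and not called, and without differentiation replicate 1 it was lower by 1.27 on the log2 scale and called.

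By the calls used here, gibberellin genes were lower in 4 of 9 tested and none was higher. Over the settings tried, those higher numbered from 0 to 2 and those lower from 3 to 5. Without elongation replicate 1 and on library totals alone there was 1 called higher. GID1b-2 (LOC101253192) was at 0.88 ± 0.12 and missed the 2-fold limit, although every D library was above every E library. It was called higher on library totals alone and with upper quartile scaling, at 1.071 in the latter. On log2(TPM + 0.1) and log2(TPM + 1) values it was also called higher, at 1.271 and 1.258. GA2ox2, which inactivates gibberellins, had 6, 2.7 and 3.2 in the differentiation zone, against 88.4, 51.3 and 57 in the elongation zone (log2 fold change -4.01, SE 0.40, edgeR adjusted p = 2.32e-05), and GA2ox5 and 20ox-1, an inactivating and a synthetic oxidase, were lower, at -2.64 ± 0.33 and -3.7 ± 0.49. GAI, a DELLA repressor of the response, was lower, at -1.01 ± 0.13. Ethylene genes were higher in 14 (20.9%, beside 16.6% among all genes) and lower in 6 (8.96%, beside 15.8%) of 67 tested. Over the settings tried, those higher numbered from 8 to 21 and those lower from 5 to 7. Ethylene synthesis genes split by family member: the ACC synthases ACS8 and ACS3 were lower and ACS1A higher, and the ACC oxidases ACO6 (LOC100125909) and ACO3 were higher. ACS8 had 2, 1.8 and 0.8 in the differentiation zone, against 148, 168 and 175 in the elongation zone (log2 fold change -6.66, SE 0.33, edgeR adjusted p = 3.57e-07). With 5 counts over the D libraries and 439 over the E libraries, its D level was 0.908% of the E level (exact 95% interval of counting error only, 0.293% to 2.13%). ACO6 had 275, 468 and 437 in the differentiation zone, against 34.3, 48.3 and 50.6 in the elongation zone (log2 fold change 3.14, SE 0.25, edgeR adjusted p = 6.24e-06). The receptors ETR2 and ETR6 were higher by 1.72 ± 0.19 and 1.7 ± 0.27, and among ERF transcription factors ERF3-like was the most reduced, at -4.44 ± 0.22.

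Genes of abscisic acid and water stress were higher in 6 (40%) and lower in 3 (20%) of 15 tested, beside 16.6% and 15.8% among all genes. Over the settings tried, the higher ones numbered from 1 to 8 and the lower ones from 1 to 3. LEAS1 had 1021, 1328 and 1265 normalized counts in the differentiation zone, against 35.6, 44.1 and 54.9 in the elongation zone (log2 fold change 4.73, SE 0.20, edgeR adjusted p = 1.47e-07). ABI3, a regulator known from seeds, and the dehydrin gene TAS14 were higher by 1.6 ± 0.41 and 1.58 ± 0.42 at low levels of 2.06 and 3.76 TPM in D. Neither passed against a 2-fold null (edgeR glmTreat, adjusted p = 0.127 and 0.147). LEA14 was lower, with 496, 326 and 448 in the differentiation zone, against 1977, 1732 and 1934 in the elongation zone (log2 fold change -2.15, SE 0.17, edgeR adjusted p = 5.51e-06), as was NCED2 (LOC100316877), a carotenoid dioxygenase of abscisic acid synthesis, at -2.07 ± 0.23. Asr2 was at 1.0 ± 0.25 and missed the 2-fold limit. It passed with the replicate number as a block, at 1.05 with an edgeR adjusted p of 7.51e-05, and without differentiation replicate 1 or elongation replicate 2, at 1.08 and 1.32.

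Mineral transport and metal handling genes were mostly higher in D. Of 11 transporters of ammonium, nitrate, phosphate, potassium and sulfate, 6 (54.5%) were called higher and 1 (9.09%) lower, with a median of 1.17. Among all genes the shares were 16.6% and 15.8%. The higher transporters numbered from 3 to 9 over the settings tried. PT1, the most abundant of them at 705 TPM in D and 308 TPM in E, was at 0.815 ± 0.17 and not called. PT2, a phosphate transporter, had 138, 118 and 109.9 normalized counts in the differentiation zone, against 5.3, 7.2 and 8.6 in the elongation zone (log2 fold change 4.07, SE 0.28, edgeR adjusted p = 2.29e-06). LeAMT1;1, an ammonium transporter, had 2527, 2233 and 2432 in the differentiation zone, against 790.4, 714 and 703 in the elongation zone (log2 fold change 1.7, SE 0.13, edgeR adjusted p = 4.08e-06). The potassium channel LKT1, the sulfate transporter ST1, the phosphate transporter PT3 and the ammonium transporter AMT1-2 were higher by 1.49 ± 0.28, 1.4 ± 0.17, 1.17 ± 0.32 and 1.17 ± 0.14. The exception was the sulfate transporter st3, with 2355, 2094 and 1945 in the differentiation zone, against 9395, 6665 and 7713 in the elongation zone (log2 fold change -1.89, SE 0.18, edgeR adjusted p = 1.44e-05). PHO1 genes, which in Arabidopsis export phosphate toward the xylem, formed a list after values were seen: PHO1-3 (LOC101244953) and PHO1-1 (LOC101256919) were higher, PHO1-4 (LOC101261330) was lower and 3 of 6 were not called. PHO1-1 had 4204, 5845 and 5133 in the differentiation zone, against 588, 873 and 616 in the elongation zone (log2 fold change 2.87, SE 0.20, edgeR adjusted p = 2.86e-06).

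The iron uptake genes called higher were CHLN, the nicotianamine synthase gene of the *chloronerva* mutant, and NRAMP1, a metal transporter. CHLN had 192, 251 and 294 in the differentiation zone, against 29, 28.7 and 11.8 in the elongation zone (log2 fold change 3.41, SE 0.31, edgeR adjusted p = 1.26e-05), and NRAMP1 had 1123, 1613 and 1470.1 in the differentiation zone, against 132, 185 and 167 in the elongation zone (log2 fold change 3.12, SE 0.19, edgeR adjusted p = 1.16e-06). The other tested genes of the list, the regulator fer and NRAMP3, were at 0.02 and -0.26 and not called, and 2 of 4 were thus higher. Metallothioneins, small cysteine-rich proteins that bind metals, were called higher in 4 of 4 tested, with a median of 3.67, in a list formed after values were seen. MT3 had 5802, 3786 and 3112 in the differentiation zone, against 235, 270.0 and 278 in the elongation zone (log2 fold change 4.02, SE 0.24, edgeR adjusted p = 1.15e-06), and MT2 had 740.5, 1078 and 1062 in the differentiation zone, against 26.4, 30.8 and 45.2 in the elongation zone (log2 fold change 4.8, SE 0.24, edgeR adjusted p = 4.21e-07). In sum the 4 reached 2056 to 2437 TPM in the D libraries, against 115.1 to 220.9 TPM in the E libraries.

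Sucrose is split by invertases or by sucrose synthases. The invertase gene lin9 had 25.1, 19.1 and 30.5 normalized counts in the differentiation zone, against 6947, 6953 and 8215 in the elongation zone (log2 fold change -8.19, SE 0.23, edgeR adjusted p = 4.07e-08). LIN8, LIN7, lin5 and Wiv-1, further invertase genes, were lower, with log2 fold changes between -2.57 and -1.06, and the hexose transporters ht1 and ht2, at -1.27 ± 0.15 and -1.36 ± 0.20. The sucrose synthase gene sus3 was higher, with 164529, 137676 and 115827 in the differentiation zone, against 55594, 50079 and 32405 in the elongation zone (log2 fold change 1.6, SE 0.28, edgeR adjusted p = 0.00073), and averaged 4024 TPM in D and 1014 TPM in E. Of 20 tested, 8 were called lower and 2 higher, and without elongation replicate 2 only sus3 was higher. Water channel genes were mostly not called: 3 of 12 were lower and 1 higher. TIP, an aquaporin of the vacuole membrane and in TPM the most abundant of the genes called higher (9825 in D and 2561 in E), had 158984, 96399.6 and 83890.2 normalized counts in the differentiation zone, against 47953, 37332 and 29681 in the elongation zone (log2 fold change 1.56, SE 0.30, edgeR adjusted p = 0.00157). PIP2-9 (LOC100736527), of the plasma membrane, fell to 6921, 2852 and 3005 in the D libraries, against 70077, 36556 and 44262 in the E libraries (log2 fold change -3.56, SE 0.41, edgeR adjusted p = 5.32e-05). SlTIP2-2 was lower, at -1.03 ± 0.33, a call lost without differentiation replicate 2 or 3 or elongation replicate 1, at -0.84, -0.89 and -0.79.

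Defence and oxylipin genes were higher in 12 (41.4%) and lower in 4 (13.8%) of 29 tested, with a median of 0.70. Among all genes the shares were 16.6% and 15.8%. The higher ones numbered from 8 to 15 over the settings tried. Without elongation replicate 1 the lower ones of the list were 2. The gene cevi57, lower at -1.38 ± 0.51, lost its call without that library, at -0.77. In TPM the most abundant of the list was opr2, at 1700 in D and 598 in E. It was higher by 1.12 ± 0.22, a call lost without differentiation replicate 2, at 0.98. LOX1.1, a lipoxygenase that oxidizes polyunsaturated fatty acids, had 15931, 19327 and 17848 normalized counts in the differentiation zone, against 426, 1228 and 665 in the elongation zone (log2 fold change 4.51, SE 0.37, edgeR adjusted p = 6.37e-06). TomloxE and LOXB, further lipoxygenases, were higher by 2.57 ± 0.26 and 3.12 ± 0.34, and alpha-DOX2, a fatty acid alpha-dioxygenase, had 779.7, 1324 and 1149 in the differentiation zone, against 9.2, 62.6 and 20.4 in the elongation zone (log2 fold change 5.08, SE 0.47, edgeR adjusted p = 1.32e-05). p69F, a subtilisin-like protease, had 2319, 2569 and 2602 in the differentiation zone, against 75.2, 181 and 52.7 in the elongation zone (log2 fold change 4.59, SE 0.37, edgeR adjusted p = 6.51e-06). Enzymes of the jasmonate route itself did not move together. The allene oxide synthase gene aos was lower, at -2.76 ± 0.29, and opr3, which makes the jasmonate precursor, at -1.06 ± 0.13. The lipoxygenase gene loxD was higher by 1.28 ± 0.29. AOS3, a further allene oxide synthase gene that is not counted with that route here, was higher by 3.16 ± 0.63. The chitinase gene CHI17 was lower, at -3.64 ± 0.38.

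Phenylpropanoid genes were higher in 2 and lower in 2 of 7 tested. CCR2, a cinnamoyl-CoA reductase of lignin synthesis, had 112, 80.2 and 93.9 in the differentiation zone, against 5.3, 7.2 and 9.7 in the elongation zone (log2 fold change 3.65, SE 0.31, edgeR adjusted p = 7.73e-06). PAL3, phenylalanine ammonia-lyase, the entry of the pathway, was the most abundant, at 1671 TPM in D and 499 TPM in E, and was higher by 1.34 ± 0.20. The ligase gene 4CL and F3H of flavonoid synthesis were lower, at -1.38 ± 0.18 and -1.77 ± 0.21, the 4CL call being lost on TPM values at -0.97. Among class III peroxidases, secreted enzymes that can cross-link walls, TPX2 had 19710.1, 14863 and 12983 in the differentiation zone, against 5048, 6619.6 and 5232 in the elongation zone (log2 fold change 1.49, SE 0.21, edgeR adjusted p = 0.000189) and was the 1 of 4 called higher, with 2 called without differentiation replicate 1 or 2 or elongation replicate 2. The suberin, cutin and wax list had GPAT higher by 1.01 ± 0.21 and CER6 lower, at -1.27 ± 0.43 among 3 tested (2 called lower without differentiation replicate 1), and no call of this list held in every setting. GPAT lost its call without differentiation replicate 3 or elongation replicate 1, at 0.92 and 0.82, and CER6 without differentiation replicate 2 or elongation replicate 1, at adjusted p-values of 0.0983 and 0.0776 from edgeR.

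Genes of steroidal glycoalkaloids, the bitter defence compounds of tomato such as tomatine, were lower in 4 and higher in 2 of 7 tested, in a list formed after values were seen. GAME17 (LOC101254402), a glycosyltransferase of the pathway, had 14.1, 11.9 and 16.9 normalized counts in the differentiation zone, against 736, 563 and 621 in the elongation zone (log2 fold change -5.47, SE 0.21, edgeR adjusted p = 1.18e-07). GAME18 (LOC101254109) and GAME1, which also add sugars, were lower, at -2.87 ± 0.16 and -1.92 ± 0.14. SMO3 (LOC104649012), named as a sterol methyl oxidase, had 21.1, 13.7 and 19.3 in the differentiation zone, against 678, 742 and 882 in the elongation zone (log2 fold change -5.41, SE 0.21, edgeR adjusted p = 1.24e-07). GAME3 went the other way, with 458, 408 and 412 in the differentiation zone, against 55.4, 53.4 and 47.3 in the elongation zone (log2 fold change 3.03, SE 0.16, edgeR adjusted p = 5.79e-07), and GAME7 (LOC101268296) was higher by 1.15 ± 0.16.

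Photosynthesis genes were higher in 12 and lower in none of 17 tested, with a median of 1.40. The higher ones numbered from 8 to 15 over the settings tried. PSBR, a subunit of photosystem II, had 496, 460.4 and 559 normalized counts in the differentiation zone, against 51.5, 86.2 and 44.1 in the elongation zone (log2 fold change 3.05, SE 0.24, edgeR adjusted p = 5.16e-06). CAB7, a chlorophyll-binding protein, had 52.2, 52.9 and 49.8 in the differentiation zone, against 0, 6.2 and 1.1 in the elongation zone (log2 fold change 4.24, SE 0.55, edgeR adjusted p = 0.000119), and rbcS1, the small subunit of Rubisco, had 210.0, 134 and 114 in the differentiation zone, against 6.6, 15.4 and 4.3 in the elongation zone (log2 fold change 4.07, SE 0.41, edgeR adjusted p = 2.56e-05). The level stayed low, with a sum over the list of 175.6 to 194.9 TPM in the D libraries, against 30.73 to 51.91 TPM in the E libraries. This list was fixed as the marker of green tissue, no green tissue is among the labels, and its part in other changes was not tested.

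Transcription factors of the WRKY, MYB, NAC, bHLH and GRAS families, with homeobox genes found by symbol, were called about as often as all genes, 6 higher and 5 lower of 38 tested, with 3 lower without elongation replicate 3 and none on library totals. MYB49 (LOC101256424) and NAC2 (LOC101250466) were higher by 2.74 ± 0.41 and 1.76 ± 0.25, and the KNOX gene TKn3 was lower, at -1.24 ± 0.15, a call lost on library totals alone, at -0.92. ABC transporters, in a list formed after values were seen, were higher in 16 (18.4%) and lower in 7 (8.05%) of 87. Among all genes 16.6% were higher and 15.8% lower, so the share higher was near that of all genes. ABCG42 (LOC101251002) had 64.3, 136 and 132 in the differentiation zone, against 2.6, 5.1 and 0 in the elongation zone (log2 fold change 5.34, SE 0.57, edgeR adjusted p = 3.63e-05), and ABCG9 (LOC101267984) had 1, 1.8 and 2.4 in the differentiation zone, against 153, 123 and 122 in the elongation zone (log2 fold change -6.11, SE 0.34, edgeR adjusted p = 6.81e-07). By summed counts, 6 in D and 349 in E, the D level of ABCG9 was 1.37% of the E level (exact 95% counting interval, 0.499% to 3.01%). Transcripts of ABCB21 (LOC101258351) were far more abundant, at 223 TPM in D and 40.7 TPM in E. Heat shock genes were mostly not called (1 higher and 2 lower of 16), nor were ribosomal protein genes (1 lower of 8). With a library left out, the heat shock genes called lower numbered 4 (without differentiation replicate 1) or 1 (without differentiation replicate 2 or 3 or elongation replicate 1), and those called higher 2 (without differentiation replicate 1 or 2 or elongation replicate 3) or 0 (without elongation replicate 1). The ribosomal genes called lower numbered 3 (without differentiation replicate 1 or elongation replicate 2), 2 (without elongation replicate 3) or 0 (without any of the others). The xylem gene tbn1 and the phloem sucrose transporter SUT2, the only members of their lists, were at -0.50 and -0.61 and not called.

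**Figure D3:**
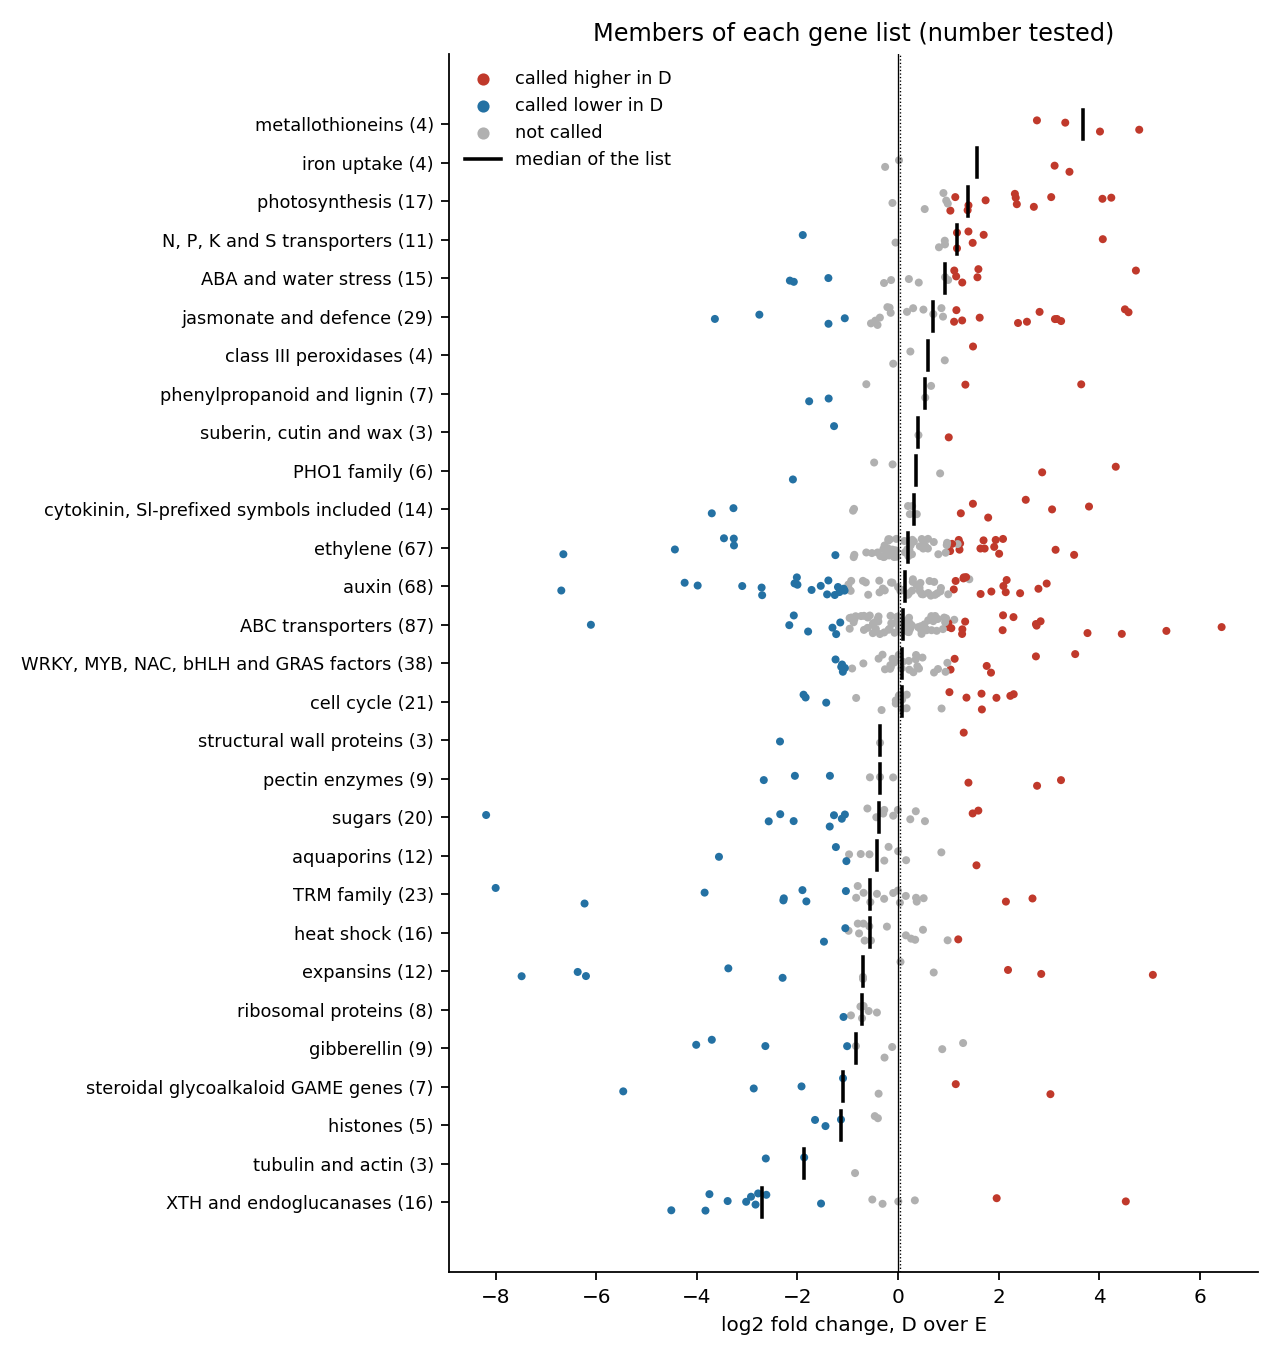
Log2 fold change, WT differentiation zone (D) over WT elongation zone (E), of each tested member of the gene lists with at least 3 tested members, with red, blue and grey points for members called higher, called lower and not called. Black bars mark list medians, which run from -2.70 for XTH and endoglucanase genes to 3.67 for metallothioneins, and the dotted line marks the median of all genes, 0.0471.

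Many of the strongest changes belonged to genes that the files list only by number, for which no role is given here. Among genes with a mean of at least 100 normalized counts in the higher zone, and leaving out those with at most 3 counts throughout the other, the largest rise was LOC104648268, with 437, 416 and 352 normalized counts in the differentiation zone, against 0, 6.2 and 2.2 in the elongation zone (log2 fold change 7.01, SE 0.40, edgeR adjusted p = 7.65e-07). LOC101268175 was more abundant, with 4252, 4363 and 3881 in the differentiation zone, against 29, 77 and 25.8 in the elongation zone (log2 fold change 6.54, SE 0.36, edgeR adjusted p = 6.25e-07). LOC101259182, LOC101255060 and LOC101253431 were higher by 6.72 ± 0.50, 6.57 ± 0.49 and 6.54 ± 0.51. In each of these 5 genes elongation replicate 2 was the highest E library. The largest fall among the same genes was LOC101256655, with 20.1, 24.6 and 21.7 in the differentiation zone, against 7583, 7199 and 6924 in the elongation zone (log2 fold change -8.34, SE 0.19, edgeR adjusted p = 3.12e-08). LOC101247255 and LOC101251261 were lower, at -7.94 ± 0.24 and -7.86 ± 0.41. Of those with a symbol, LysRS, named as a lysyl-tRNA synthetase, had the largest rise, with 303, 456 and 469 in the differentiation zone, against 4, 13.3 and 4.3 in the elongation zone (log2 fold change 5.76, SE 0.36, edgeR adjusted p = 1.46e-06).

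Complete switches were rare. There were 10 genes with at most 3 expected counts in every E library and at least 50 in every D library, and 16 with the reverse. LOC101245119, which had the highest counts of the first kind, held 191, 326 and 316 expected counts in the D libraries, against 1, 3 and 0 in the E libraries. The gene with the highest counts of the second kind, LOC101244522, had 1, 0.9 and 2.4 normalized counts in the differentiation zone, against 693, 664 and 741 in the elongation zone. By abundance the leading genes were others. Formate dehydrogenase, fdh, had 108809, 107411 and 91226 in the differentiation zone, against 19757, 29263 and 18880.0 in the elongation zone (log2 fold change 2.18, SE 0.25, edgeR adjusted p = 5.27e-05), and gts1 had 79548, 79383 and 62674 in the differentiation zone, against 21135, 16449 and 16376 in the elongation zone (log2 fold change 2.04, SE 0.22, edgeR adjusted p = 3.82e-05). LOC101257132 fell to 10726, 5801 and 7011 in D, against 97436, 62841 and 72642 in E (log2 fold change -3.31, SE 0.30, edgeR adjusted p = 1.3e-05). LOC778315 was lower, at -1.18 ± 0.30, and at -0.99 without differentiation replicate 2, where it missed the 2-fold limit.

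Levels in the WT meristem, given in TPM as a description with no test, show that the losses were of different kinds. The invertase gene lin9 peaked in elongation, with 53.8, 30.9 and 62.8 TPM in meristem libraries, 182, 227 and 257 in elongation libraries and 0.88, 0.79 and 1.27 in differentiation libraries. EXPA8 followed the same course, with 27.6, 24.9 and 34.4 TPM in meristem libraries, 105, 121 and 136 in elongation libraries and 1.12, 0.67 and 0.8 in differentiation libraries. For exp11 the values were 48.4, 72.4 and 62.2 TPM in meristem libraries, 237, 154 and 181 in elongation libraries and 5.01, 2.1 and 1.92 in differentiation libraries. The ACC synthase gene ACS8 was also highest in elongation, though at a low level, with 0.6, 0.78 and 0.97 TPM in meristem libraries, 4.79, 6.74 and 6.75 in elongation libraries and 0.09, 0.09 and 0.05 in differentiation libraries. Other genes lower in D were highest at the tip. GAME17 (LOC101254402) had 268, 263 and 281 TPM in meristem libraries, 23.8, 22.5 and 23.8 in elongation libraries and 0.61, 0.59 and 0.86 in differentiation libraries. PIN2 declined likewise, with 101, 80 and 104 TPM in meristem libraries, 24.1, 26.2 and 23.8 in elongation libraries and 0.28, 0.47 and 0.19 in differentiation libraries, as did the histone gene HTA6, with 1765, 1757 and 1605 TPM in meristem libraries, 335, 413 and 439 in elongation libraries and 143, 157 and 195 in differentiation libraries.

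The genes higher in D also differed in the meristem. EXPB2 was close to 0 there, with 0.45, 1.21 and 0.86 TPM in meristem libraries, 1.8, 11.4 and 6.29 in elongation libraries and 254, 283 and 297 in differentiation libraries. LOX1.1 showed the same order, with 1.12, 3.43 and 3.12 TPM in meristem libraries, 8.4, 30 and 15.6 in elongation libraries and 419.7, 597 and 558 in differentiation libraries. The mitotic genes cdkB2 and CycA1 instead were lowest in the elongation zone. The values of cdkB2 were 150.0, 96.7 and 149 TPM in meristem libraries, 3.99, 6.79 and 6.02 in elongation libraries and 28.1, 39.6 and 35.6 in differentiation libraries, and those of CycA1 were 42.9, 21.1 and 45.6 TPM in meristem libraries, 1.33, 1.64 and 1.29 in elongation libraries and 7.35, 10.2 and 10.1 in differentiation libraries. The D level of both genes was thus between those of the other zones. This course was not particular to mitotic genes. ARF5 had 15.7, 11.1 and 18.6 TPM in meristem libraries, 0.6, 0.63 and 0.51 in elongation libraries and 4.57, 7.33 and 6.02 in differentiation libraries. For cel7 the values were 84.6, 53.0 and 83.2 TPM in the meristem, 1.3, 1.53 and 1.73 in elongation and 6.38, 7.26 and 9.78 in differentiation. The genes exp18 and SlCKX3 were also lowest in the elongation zone.

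**Figure D4:**
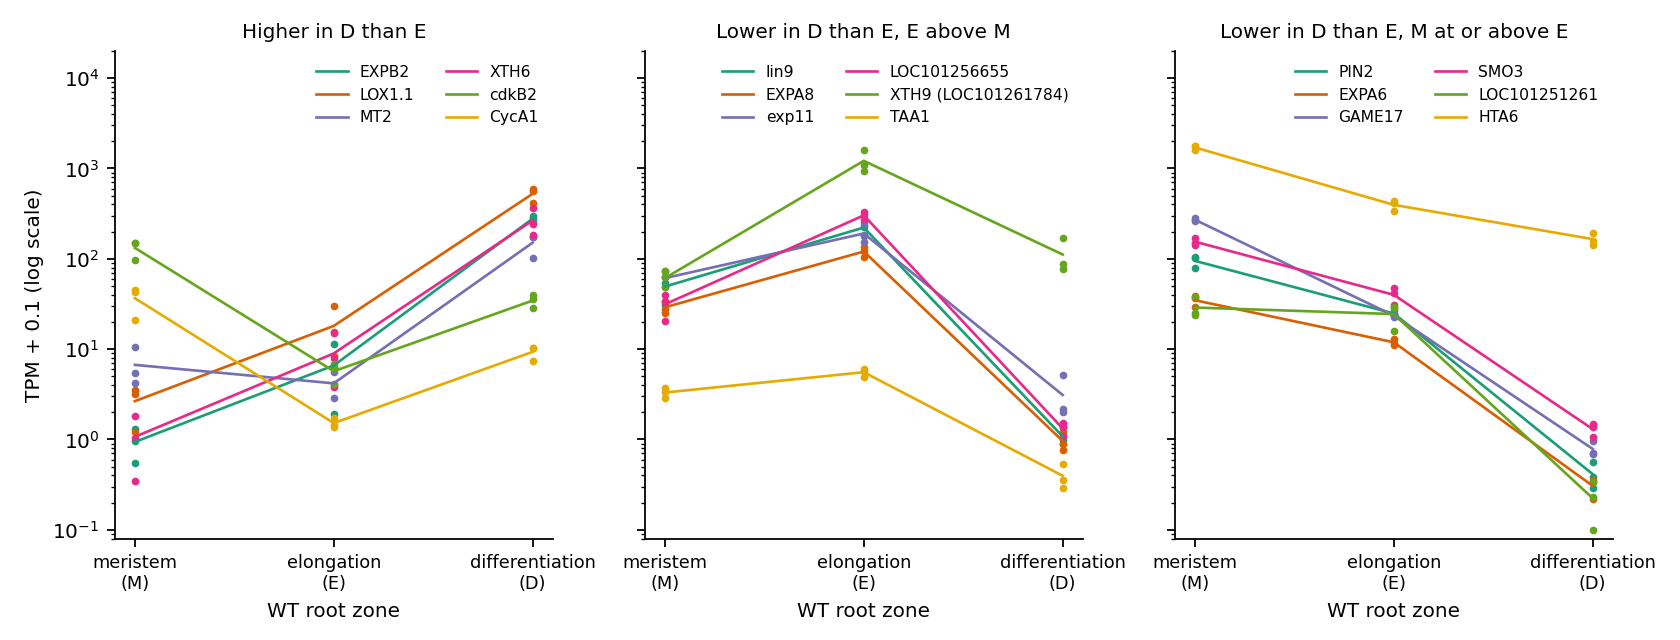
TPM + 0.1 (log axis) of 18 genes along WT roots, in meristem, elongation zone and differentiation zone libraries, with each library as a point and lines through the means of 3. Left, genes higher in the differentiation zone than in the elongation zone, where cdkB2 and CycA1 are lowest in the elongation zone. Middle, genes such as lin9 and EXPA8 that are highest in the elongation zone. Right, genes such as PIN2 and GAME17 that are highest in the meristem.

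The step was also measured in *dgt* roots, with 3 libraries per zone. The *dgt* differentiation zone over the *dgt* elongation zone gave 2954 genes called higher and 3374 lower of 20882 tested. Of the 3317 genes called higher in WT, 1976 were called higher and 14 lower in *dgt*, and of the 3147 called lower in WT, 2455 were called lower and 7 higher in *dgt*. The 2 fits share no library. A test of the difference itself, the interaction of zone and genotype over 12 libraries, passed an edgeR adjusted p of 0.05 in 1679 of 21270 genes, and in 977 of the 6464 called in WT. The expansin genes with the steepest losses did not pass: EXPA8 changed by -7.67 in *dgt* and -7.49 in WT on the log2 scale (interaction -0.10, edgeR adjusted p = 0.933), and exp11 by -6.73 in *dgt* and -6.37 in WT (interaction -0.28, edgeR adjusted p = 0.823). EXPB2 and PIN2 likewise did not pass, with edgeR adjusted p-values of 0.07 and 0.975, which does not show that the genotypes are alike. The xyloglucan enzyme gene XTH3 did pass, changing by -3.23 in *dgt* and -4.51 in WT (interaction 1.36, edgeR adjusted p = 0.0252). LEAS1 passed as well, changing by -0.59 in *dgt* and 4.73 in WT (interaction -5.25, edgeR adjusted p = 1.57e-08). TAA1 (LOC101246927) changed by -1.17 in *dgt* and -4.58 in WT (interaction 3.49, edgeR adjusted p = 0.000383). The mitotic kinase gene cdkB2 changed by 0.86 in *dgt* and 2.23 in WT (interaction -1.3, edgeR adjusted p = 0.0198).

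**Figure D5:**
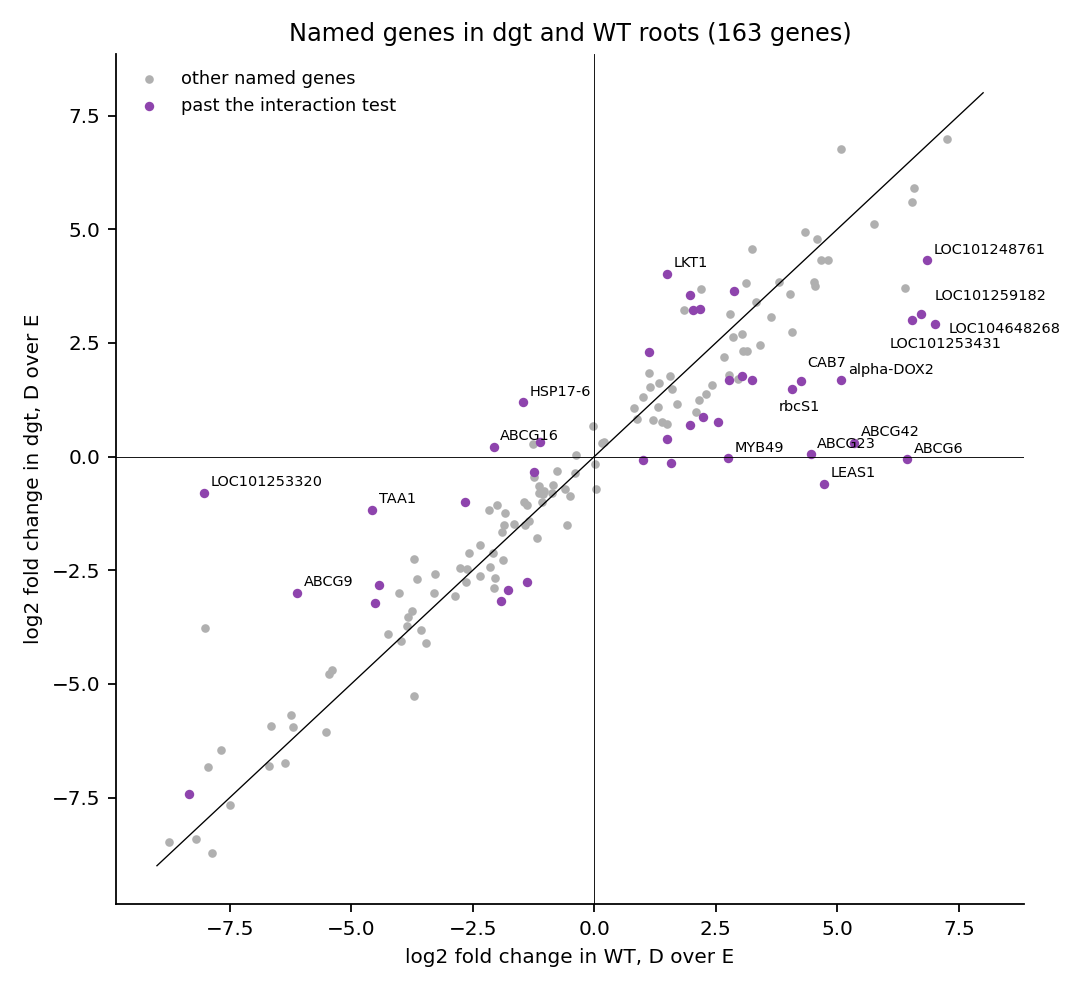
Log2 fold change of the differentiation zone over the elongation zone in *dgt* roots (vertical axis) against the same in WT roots (horizontal axis) for the 163 genes named by the rule, with 3 libraries per zone and genotype. Purple points are the 41 genes past the interaction test, grey points the others, and the line marks equal change. ABI3, ERF-F8 (LOC101249486), cevi57 and Ls were not tested between the *dgt* zones and are not drawn. LEAS1 lies at 4.73 in WT and -0.59 in *dgt*.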

How the data were processed

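The libraries were single-end RNA-Seq from a kit that keeps no strand, so overlapping antisense genes cannot be told apart. From reads mapped to tomato reference transcripts (cultivar Heinz), RSEM gave the authors' deposited files: expected counts, left without normalization, and TPM, scaled by the authors for transcript length and depth. Further deposited tables of *dgt* over WT hold a score and a ratio from EBSeq for another contrast and were not used, nor were isoform files. Reads shared by close gene copies are divided by RSEM, so such genes are uncertain.

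Rounded expected counts entered the edgeR (version 4.0.16, R 4.3.3) quasi-likelihood test (glmQLFit, glmQLFTest, TMM, filterByExpr with a minimum count of 10 and total of 15, prior count 0.125). A gene was called where the difference passed 2-fold with p below 0.05 after Benjamini-Hochberg adjustment over all tested genes. The log2 fold changes carry standard errors from the quasi-likelihood statistic. The interaction was fitted on 12 libraries. DESeq2 1.42.0 and limma 3.58.1 served as alternatives. Figures were drawn with matplotlib 3.10.9. EBSeq was not run.

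The members and lists were chosen with earlier results of these data known. Lists were formed by gene symbol, and symbols with another meaning were taken out. Genes named are, among called genes whose zones do not overlap, with a mean of at least 100 normalized counts in the higher zone and not at or under 3 counts throughout the other, the 5 with the largest rise and fall, the 10 of each with a symbol, the leading called members (up to 3 each way) and most abundant member of each list, and the 3 most abundant called genes each way. From genes at or under 3 counts in a zone and at least 50 in the other, 3 each way. Further list members are named as examples after their values were seen. Of 29922 genes, 25566 were matched to the RefSeq table of assembly SLM_r2.1 by gene ID, 1470 by accession, 12 by symbol and 1 by synonym, 1 was ambiguous and 2872 had no match. The files use another assembly, so no coordinates are given.

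No replicates were alike within sampling noise (chi-square per degree of freedom 11.5 to 44.0). Deviations of same-numbered D and E libraries from their zone means correlated over genes at 0.505, 0.239 and 0.206, all over 0.1, so the numbers were taken to pair the samples, while libraries of unlike number ran from -0.434 to 0.337, the highest being differentiation replicate 3 with elongation replicate 2. The pairing rests on these values, since the labels share only the number, and the limit of 0.1 does not separate same-numbered libraries from others. Fold changes, standard errors and p-values are from fits without pairing, except where the replicate number is named as a block. The procedure was tested on simulated counts with 200 changed genes among 19897: of 100 tested 3-fold changes 90 were recovered, of 99 tested 8-fold changes 99, and 5.03% of calls had no planted change. The planted changes were balanced in direction, all other genes were equal in both zones and the libraries were drawn independently. The simulation therefore cannot show how the scaling or the pairing acts where 32.4% of genes are called. With library totals between 18032826 and 20622998, the spread between replicates, whose biological coefficient of variation was 0.172, limits the precision of well counted genes, and counting error that of genes with few counts.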

Additional observations from a re-analysis of the deposited data

Results flagged for a closer look

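The step from the elongation zone to the differentiation zone differed between *dgt* and WT in 1679 genes by the interaction test (edgeR, 12 libraries), among them 41 of the 163 named genes. In 32 of the 41 the change was the larger in WT and in 9 the larger in *dgt*. The naming rule favoured genes with a large change in WT, so this split partly follows from the choice and does not compare the genotypes. Values below are the interaction, the log2 fold change in *dgt* minus that in WT, and whether a cause lies in cell makeup, in depth or in the genotype was not tested.

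Genes higher in the differentiation zone of WT that were raised less in *dgt*, or not at all, included 3 ABC transporters, ABCG6 (LOC101249450) at -6.46, ABCG42 (LOC101251002) at -4.97 and ABCG23 (LOC101267550) at -4.34, and LEAS1 at -5.25. The numbered genes LOC104648268, LOC101259182, LOC101253431 and LOC101248761 were at -4.02, -3.51, -3.46 and -2.47, and alpha-DOX2 at -3.33. MYB49 (LOC101256424) was at -2.72, the photosynthesis genes rbcS1, CAB7 and PSBR at -2.51, -2.50 and -1.20, and TLOG1 of cytokinin activation at -1.72. The dehydrin gene TAS14 was at -1.65, the beta-galactosidases TBG5 and TBG2 at -1.48 and -1.0, the mitotic genes cdkB2 and CycB2 at -1.30 and -1.20, TPX2 at -1.03 and GPAT at -1.01.

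Genes lower in the differentiation zone of WT that fell less in *dgt*, or not at all, were LOC101253320 at 7.32, TAA1 (LOC101246927) at 3.49, ABCG9 (LOC101267984) at 3.19, ABCG16 (LOC101251691) at 2.35, TBG3 at 1.75, ERF3-like at 1.69, WRKY80 (LOC101256570) at 1.5, XTH3 at 1.36, LOC101256655 at 1.0 and TKn3 at 0.98. HSP17-6 (LOC543848), at 2.74, was lower in WT and higher in *dgt*, at a log2 fold change of 1.19 in *dgt* and -1.47 in WT. ABCG6, ABCG23, ABCG9, LOC101248761 and LOC101253320 held at most 3 counts per library in either the D or the E libraries of WT, so the size of their interaction depends on the prior count.

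A larger change in *dgt* was seen in genes that were higher in both genotypes, LKT1 at 2.61, cel7 at 1.67, gts1 at 1.26, opr2 at 1.26, fdh at 1.13 and PHO1-1 (LOC101256919) at 0.84, and in genes that were lower in both, PRO1 at -1.29, GAME1 at -1.19 and F3H at -1.10. With the replicate number as a block LOC101256655, TAS14, CycB2 and F3H no longer passed, at edgeR adjusted p-values of 0.0519, 0.0502, 0.0642 and 0.0641.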

How the results depend on the processing

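Calls were recomputed in 11 planned ways and without each library. None of the 6464 calls reversed in any of them. Against a 2-fold null (glmTreat) 3777 genes passed, 1822 higher and 1955 lower, and 114 list genes. Of the 163 named genes 26 lost their call in this way, among them ABI3, TAS14, PRO1, TIP, LKT1, PAL3 and ext1. On log2(TPM + 0.1) values with limma 5277 were higher and 1946 lower, and on log2(TPM + 1) values 1671 were lower. The other settings kept the totals within 1.5 times: 4253 higher and 2483 lower with upper quartile scaling, 4936 and 2124 with library totals alone, 3152 and 3276 with DESeq2, and 3329 and 3154 with limma-voom. Without each library in turn the total lay between 6237 and 7032 calls, the higher between 3146 and 3573 and the lower between 3091 and 3459. With the replicate number as a block, 3384 genes were higher and 3179 lower, 6429 of the 6464 calls were kept, and of the 163 named genes only Asr2 changed its call. The interaction gave 1924 genes with the block and 2250 with DESeq2, against 1679. The gap in expressed genes was 1393 above 2 TPM, 1205 above 1 TPM, 1523 above 5 TPM and 1084 to 1648 with a library left out. All of these counts share the TPM scale, whose median was shifted upward in D. Of 163 named genes, 11 lost their call on library totals alone and 8 with upper quartile scaling, each at a log2 fold change between -1.38 and -1.03 with TMM. On library totals alone the lower members numbered 5 of the sugar list in place of 8, 1 of the aquaporins in place of 3 and 4 of the ABC transporters in place of 7. Without both differentiation replicate 1 and elongation replicate 2, added after seeing the data, 3783 genes were higher and 3555 lower. On TPM values 4CL, TBG1 and TKn3 lost their calls with either pseudocount, and ABI3, NCED2 and lin5 with a pseudocount of 1. The causes were not tested. Depth limits genes of a few counts per library, whose folds are the least certain.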

Other observations

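Among noncoding genes the shares called were as follows. Of 838 tested genes that the RefSeq table classes as lncRNA, 156 (18.6%) were called higher and 107 (12.8%) lower in the differentiation zone than in the elongation zone, beside 3048 (16.6%) higher and 2934 (16.0%) lower of 18355 protein-coding genes. Of 71 pseudogenes 19 (26.8%) were higher and 10 (14.1%) lower, and their reads may be shared with close copies. Of 50 snoRNA genes 1 (2%) was higher and 4 (8%) were lower. These classes were not tested against each other.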
